A study of Mus musculus with 4 samples.

Results

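Acute phase genes were followed in the skin of mice with experimental dermatitis: the serum amyloid A genes Saa1, Saa2 and Saa3, the pentraxin Ptx3, the iron and hemoglobin binding proteins Lcn2 and Hp, the mitochondrial dismutase Sod2, and the regulators Cebpb and Cebpd. These 9 genes of the 32285 in the deposited gene table were taken by symbol, and each has 1 row there. They had been selected on UMI levels already known from these same libraries, treated against untreated skin, so their levels and counts are given as a description, with no test. The single-cell RNA-seq data came from female C57BL/6J mice aged 6 to 8 weeks, with 1 library per condition and the ear and neck skin of 3 mice pooled in each. The 4 libraries were untreated skin, oxazolone skin at day 10 and at day 16, and MC903 skin at day 9. Oxazolone is a contact hapten: mice were sensitised with 3% oxazolone in acetone and mineral oil and, from 7 days later, challenged every other day with 1.0%. MC903 is calcipotriol, a vitamin D analog, of which 1 nmol in ethanol was applied daily in 100 uL for 9 days. No library of vehicle-treated skin was analysed here, so the solvents and the agents cannot be told apart. With 1 library a condition, differences between mice were not measured, and every interval below is a 95% interval for counting error only.

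The acute phase response is the change in secreted proteins that follows injury or infection, classically driven in the liver by interleukin-6 acting with interleukin-1. STAT3, NF-kB and the C/EBP factors carry these signals to the promoters. Serum amyloid A proteins are lipid-binding proteins, and Saa3 is the family member known in mice from cells outside the liver. Ptx3 is a long pentraxin made locally by stromal and myeloid cells, Lcn2 withholds iron by binding bacterial siderophores, Hp binds free hemoglobin, and Sod2 detoxifies superoxide in mitochondria.

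On the GRCm38 (mm10) assembly, with GENCODE gene models, Saa3 lies at chr7:46711998-46715700 on the minus strand, Saa1 at chr7:46740497-46742980 on the minus strand and Saa2 at chr7:46751790-46754313 on the plus strand. Ptx3 lies at chr3:66219910-66225805 (plus), Lcn2 at chr2:32384633-32388252 (minus), Hp at chr8:109575128-109579172 (minus) and Sod2 at chr17:13006846-13040063 (plus). Cebpb lies at chr2:167688915-167690418 (plus) and Cebpd at chr16:15887286-15891031 (plus). The promoter table of RefSeq (GRCm38.p6) held 7 of the 9 genes, all but Hp and Cebpd. Shown here are the upstream bases of the 3 serum amyloid genes, which lie in one region of chromosome 7 but differed in level, and of Ptx3, which was high in the same cells as Saa3. Each runs 5′ to 3′ from 250 to 46 bases before the RefSeq start, and capitals mark matches to the C/EBP motif TTGCNNAA (or TTNNGCAA on the other strand) and the NF-kB motif, GGG and CC set 5 bases apart on either strand.
Saa3, chr7:46715722-46715926, minus strand: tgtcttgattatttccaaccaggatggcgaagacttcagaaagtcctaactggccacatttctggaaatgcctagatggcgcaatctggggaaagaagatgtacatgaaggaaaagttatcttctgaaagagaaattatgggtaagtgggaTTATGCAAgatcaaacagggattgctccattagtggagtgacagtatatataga
Saa1, chr7:46743026-46743230, minus strand: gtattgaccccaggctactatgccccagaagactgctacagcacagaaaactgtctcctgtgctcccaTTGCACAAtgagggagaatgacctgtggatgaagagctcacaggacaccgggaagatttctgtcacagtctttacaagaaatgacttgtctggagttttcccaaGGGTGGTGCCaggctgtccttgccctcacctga
Saa2, chr7:46751583-46751787, plus strand: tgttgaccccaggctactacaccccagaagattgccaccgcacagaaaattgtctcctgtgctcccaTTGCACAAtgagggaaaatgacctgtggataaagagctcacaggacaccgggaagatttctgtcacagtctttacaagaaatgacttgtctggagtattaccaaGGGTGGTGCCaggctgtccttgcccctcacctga
Ptx3, chr3:66219637-66219841, plus strand: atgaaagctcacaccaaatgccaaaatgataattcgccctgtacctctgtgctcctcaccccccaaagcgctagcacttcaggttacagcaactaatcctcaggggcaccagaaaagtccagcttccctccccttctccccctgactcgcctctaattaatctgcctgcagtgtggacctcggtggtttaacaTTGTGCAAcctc

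A C/EBP match stood in all 4 of these windows and in that of Lcn2, which makes 5 of the 7 member promoters, and 9.56% of all 32851 RefSeq promoters held one in the same 250 bases. The Saa3 match lay 99 to 92 bases before the start and the Ptx3 match 57 to 50 bases before it. NF-kB matches were in 5 of 7 (Cebpb, Lcn2, Saa1, Saa2 and Sod2), against 45.8% of all promoters, and a STAT3 match, TTCNNNGAA, was in 1 of 7 (Sod2), against 7.02%. The Saa1 and Saa2 stretches were identical at 193 of 205 aligned bases, so their shared matches are not separate observations, whereas Saa1 and Saa3 were identical at 129 of 205. A match is a run of letters and says nothing of binding in these cells. The transcripts of Saa1 and Saa2 were also alike (375 of the last 400 bases identical), so reads of this 3′ method may be split between them or lost. Saa3 shared 231 of the last 400 bases with Saa1.

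Cells were sorted by computer into 18 marker gates, each with 3 or more of its markers at 2 or more UMIs (unique molecular identifiers, counted transcripts), and called "like" the type whose markers they carried. Across the libraries 3843 to 8301 cells were kept, and 71.9 to 77.4% of them fell into 1 gate. Fibroblast-like cells numbered 2089 in untreated skin, 755 at oxazolone day 10, 428 at day 16 and 1432 after MC903, with a median of 11950 to 30650 UMIs per cell. Their leading genes were Dcn, Lum, Itgbl1, Cxcl13 and Clec3b, and all 6 fibroblast markers were present in each library. Their neutrophil markers, 6 genes summed, stood at 1.46, 93.5, 464 and 42.5 CPM (counts per 1000000 UMIs of the gated cells) in the same order. Cells positive for both the fibroblast and the chondrocyte gate were kept apart (575, 348, 70 and 104 cells), since ear skin holds cartilage and their leading genes were Col2a1, Col8a1 and Col11a1. Libraries shared 5 to 16 cell barcodes in each pair. Cells passing other pairs of gates were left out. They held 34.25% of all Saa3 UMIs at oxazolone day 16 and 6.61 to 9.00% in the other treated libraries.

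In fibroblast-like cells of untreated skin, Saa3, Lcn2 and Hp were almost absent, and all 3 were present in every treated library, highest after oxazolone. Saa3 gave the most UMIs of the 9 genes in both oxazolone libraries, and Cebpd did after MC903. Ptx3 was also higher in both oxazolone libraries, and after MC903 it was within 2-fold of untreated skin over the whole gate, whose mix of subsets differed between the libraries. Sod2 was 2.71-fold to 5.23-fold higher in the treated libraries. Of the members with 30 or more UMIs in the pair of libraries, 6 of 8 were at least 2-fold higher at oxazolone day 10 (10.5% of all genes measured were), 7 of 8 at day 16 (8.61%) and 7 of 9 after MC903 (9.35%). At least 2-fold lower was 0 of 8, 0 of 8 and 0 of 9, against 5.79%, 11.4% and 9.87% of all genes. Since the genes were chosen with these levels in view, and the 3 comparisons share the untreated library, nothing is read from these shares.

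**Figure D1:**
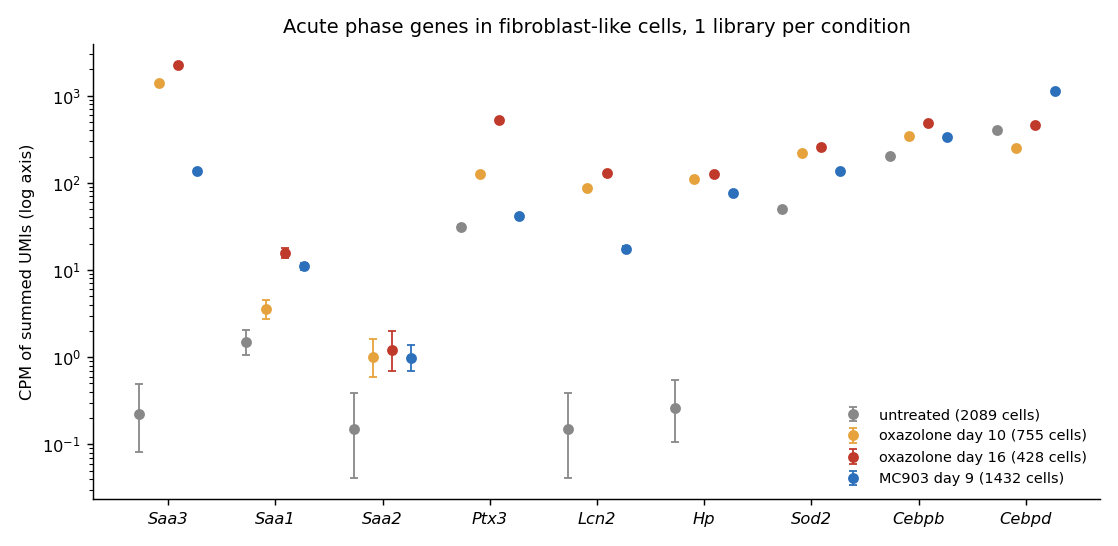
Level of each acute phase gene in fibroblast-like cells, in CPM of summed UMIs on a log axis, for the 4 libraries; points are single libraries and bars are 95% Poisson intervals for counting error. Saa3, Lcn2 and Hp lie below 1 CPM in untreated skin and between 17.6 and 2237 CPM in the treated libraries.

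The 2 C/EBP regulators differed from each other. Cebpb, a leucine zipper factor of the acute phase and of fat cell formation, stood at 205 CPM in untreated fibroblast-like cells, 344 at oxazolone day 10, 491 at day 16 and 336 after MC903. Only the day 16 level was at least 2-fold higher (log2 ratio 1.26, interval 1.21 to 1.31). Cebpd, which is induced early by cytokines and by glucocorticoids, stood at 402, 249, 454.5 and 1114 CPM in the same order. It was lowest at oxazolone day 10 (log2 ratio -0.69, interval -0.74 to -0.64) and highest after MC903 (1.47, interval 1.44 to 1.502). At day 16 the ratio was 0.18, and it was -0.05 when each cell weighed the same. At day 10, 8 of 11 immediate early and heat shock genes that respond to tissue digestion were also at least 2-fold lower than in untreated skin (median log2 ratio -1.41). The numbers were 2 of 11 at day 16 and 0 of 11 after MC903. Over all genes measured, 5.79% were at least 2-fold lower at day 10, 11.4% at day 16 and 9.87% after MC903. The part of digestion in the Cebpb and Cebpd levels was not tested.

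Saa3 gave 6 UMIs in the 2089 untreated fibroblast-like cells, which is 0.225 CPM. The treated libraries gave 23310 UMIs (1379 CPM) at oxazolone day 10, 29457 (2237 CPM) at day 16 and 4891 (138 CPM) after MC903. All 3 lay far above the untreated library, at log2 ratios of 12.58 (interval 11.46 to 14.03), 13.28 (12.16 to 14.73) and 9.26 (8.14 to 10.71). The day 16 level was 1.62-fold that of day 10, and the log2 ratio of MC903 over day 16 was -4.02 (interval -4.06 to -3.97). The day 16 level depended on how cells entered the gate: with 1 marker fewer required, Saa3 stood at 346 CPM and Ptx3 at 204 CPM, and the cause was not tested. Its relatives were far scarcer. Saa1 stood at 1.5, 3.55, 15.8 and 11.03 CPM in untreated, day 10, day 16 and MC903 cells, from 40 to 390 UMIs. With 1 marker fewer per gate the day 16 level was 2.43 CPM. Single cells carried much of it: 1 cell held 119 of the 208 UMIs at day 16 and 1 cell 118 of the 390 after MC903, and without those cells the levels were 6.78 and 7.70 CPM. Saa2 gave 4, 17, 16 and 35 UMIs, and the treated levels of 0.99 to 1.22 CPM overlapped in their intervals. Only the MC903 pair reached 30 UMIs (log2 ratio 2.72, interval 1.24 to 4.68).

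Ptx3 was the secreted member already present in untreated fibroblast-like cells. It stood at 30.9 CPM there, 127 at oxazolone day 10, 523 at day 16 and 41.9 after MC903. The log2 ratios over untreated skin were 2.04 (interval 1.92 to 2.15), 4.08 (3.98 to 4.19) and 0.44 (0.32 to 0.56), so the MC903 level missed the 2-fold call over the whole gate. Cells with adventitial markers, which held 83.5% of untreated Ptx3, were 39.1% of the gate in untreated skin and 8.03% after MC903. Within each subset Ptx3 was higher after MC903: 109.4 against 54.4 CPM in adventitial-marked cells, 136.5 against 4.71 in cells with Postn and Cilp type markers, 24.3 against 16.3 with Cxcl13 and Inmt type markers, 10.4 against 5.95 with perichondrium markers and 60.7 against 14.9 in cells of no subset. In papillary-marked cells it was 5.79 CPM against 0.506, the latter from 1 UMI. The MC903 level in perichondrium-marked cells lay inside the untreated interval there (2.97 to 10.64 CPM, from 11 UMIs). With Cxcl13 and Inmt type markers the untreated interval was 11.1 to 23.2 CPM. After MC903, 1 cell of the gate held 279 Ptx3 UMIs, 18.8% of the total. The part of the subset mix in the ratio over the whole gate was not tested. The ratio over the whole gate turned to -0.18 with 1 marker fewer per gate, to -0.82 without cells holding a neutrophil marker UMI and to -0.63 without the tenth of cells highest in Saa3. Between day 10 and day 16 Ptx3 differed by 4.13-fold, more than Saa3 (1.62-fold), Lcn2 (1.52-fold) or Hp (1.15-fold). The log2 ratio of MC903 over day 16 was -3.64.

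Lcn2 and Hp had in common that their levels were higher in neutrophil-like than in fibroblast-like cells of each treated library. In fibroblast-like cells Lcn2 gave 4 UMIs in untreated skin (0.150 CPM) and stood at 86.2 CPM at oxazolone day 10, 131 at day 16 and 17.6 after MC903. Hp gave 7 UMIs in untreated skin (0.263 CPM) and stood at 109.5, 126 and 76.2 CPM. The Hp levels were thus closer to each other across models than those of Lcn2: MC903 against day 16 gave log2 ratios of -0.73 for Hp and -2.90 for Lcn2. Neutrophil-like cells held 1625, 1224 and 1432 CPM of Lcn2 and 846, 285 and 579 CPM of Hp in the treated libraries. The neutrophil genes S100a8 and S100a9 stood in fibroblast-like cells at 0.0368 to 0.394% of their neutrophil level, and 8 further neutrophil genes at a median of 0.195 to 0.483%. At the largest of these 3 percentages in each library, neutrophil RNA would give 3.17, 5.91 and 6.26 CPM of Lcn2 and 1.65, 1.38 and 2.53 CPM of Hp. Single genes of the list stood far from its median. Camp had the highest percentages, at 4.53, 7.69 and 75.4% (6.69, 2.89 and 3.54 CPM in fibroblast-like cells). The last rests on a neutrophil level of only 4.69 CPM, and untreated fibroblast-like cells held 0.638 CPM of Camp. Il1r2 stood at 2.30, 4.27 and 14.6% but was present in untreated fibroblast-like cells too (282 CPM). Measured against their own neutrophil levels, fibroblast Lcn2 stood at 5.30, 10.7 and 1.23% and Hp at 12.9, 44.2 and 13.2%. After MC903 Lcn2 thus lay under the percentages of Camp, Il1r2 and G0s2 (3.16%), and Hp under those of Camp and Il1r2. G0s2, too, was present in untreated fibroblast-like cells (49.6 CPM). The part of neutrophil RNA in the Lcn2 and Hp levels was not tested further. Other gates held Hp too. After MC903, 15 adipocyte-like cells stood at 13350 CPM, and the part of their RNA in the fibroblast Hp level was not tested. Mural-like cells stood at 0 CPM of Hp in untreated skin, 17.6 at day 10 and 50.9 after MC903 (75 UMIs). In fibroblast-like cells without 1 UMI of a neutrophil marker (171 cells at day 10 and 675 after MC903), Lcn2 stood at 71.4 and 10.5 CPM and Hp at 59.96 and 31.4 CPM. Saa3 stood there at 1725 and 59.4 CPM. At day 16 only 12 such cells were left.

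Sod2, an enzyme of the mitochondrial matrix, stood at 49.8 CPM in untreated fibroblast-like cells, 222 at oxazolone day 10, 260.5 at day 16 and 135 after MC903. The log2 ratios were 2.15 (interval 2.06 to 2.25), 2.39 (2.30 to 2.48) and 1.44 (1.35 to 1.53). Among 10 other antioxidant enzymes, 2 were at least 2-fold higher at day 10 (Prdx5, 1.515, and Sod3, 1.36), 4 at day 16 (Sod3, 1.84, Prdx5, 1.47, Gpx3, 1.35, and Txn1, 1.03) and 1 after MC903 (Gpx3, 2.04), and 0 were lower. The list's median log2 ratio was 0.49, 0.52 and 0.30, against 0.04, -0.15 and 0.04 over all genes measured. Over all genes, 10.5, 8.61 and 9.35% were at least 2-fold higher, so the MC903 count was near that share.

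**Figure D2:**
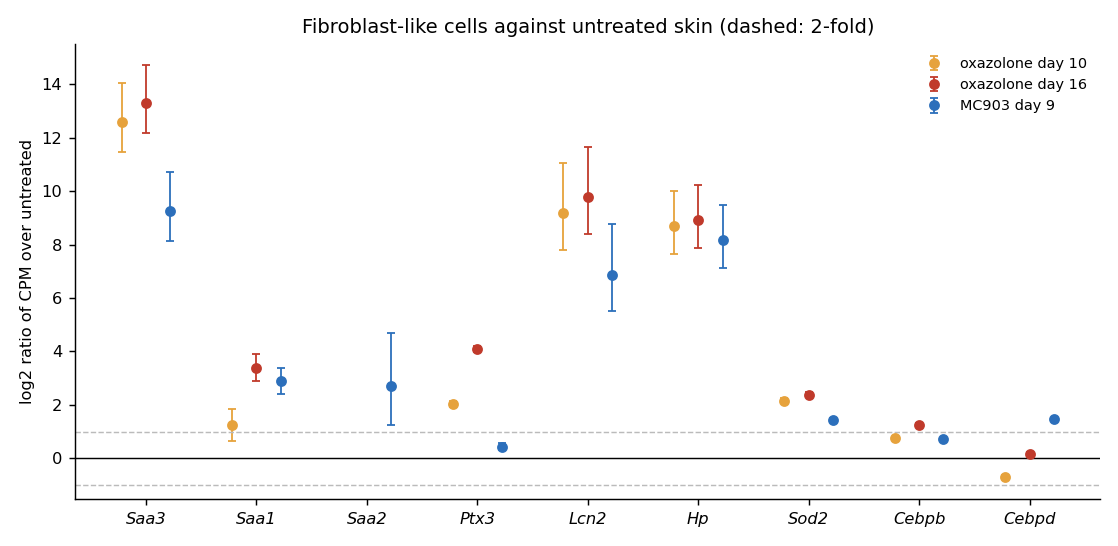
Log2 ratio of CPM in fibroblast-like cells of each treated library over untreated skin for the members with 30 or more UMIs in the pair; bars are 95% counting intervals and dashed lines mark 2-fold. Saa3 lies between 9.26 and 13.28, while Cebpd spans -0.69 to 1.47 and Ptx3 after MC903 lies at 0.44.

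Many other acute phase products of the fibroblast-like cells were also higher. Of the 26 genes listed, 15 could be measured: 8 were at least 2-fold higher and 0 lower at oxazolone day 10, 12 and 0 at day 16, and 13 and 1 after MC903. The remaining 7, 3 and 1 lay within 2-fold. The median log2 ratios were 1.17, 2.14 and 1.54, against 0.04, -0.15 and 0.04 over all genes. Among all genes measured, 10.5, 8.61 and 9.35% were at least 2-fold higher and 5.79, 11.4 and 9.87% at least 2-fold lower. Timp1, an inhibitor of matrix metalloproteases, stood at 35.3 CPM in untreated cells and at 1069, 1635 and 175 CPM in day 10, day 16 and MC903 cells. Lrg1, a leucine-rich plasma glycoprotein, gave 4 UMIs in untreated cells and stood at 8.34, 16.6 and 14.8 CPM. The interleukin-1 receptor antagonist Il1rn stood at 0.225 CPM in untreated cells and at 1.42, 30.8 and 3.99 CPM. The part of neutrophil RNA in the Il1rn levels was not tested. Crp, the short pentraxin C-reactive protein, was among the 4 largest differences after MC903 (10.35 against 1.01 CPM). The fibrinogen chains Fga at day 10 and Fgg at day 16 gave 33 and 40 UMIs against 0, log2 ratios of at least 4.12 and at least 4.755.

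The cytokines and receptors that induce such genes were less uniform. Of 17 listed, 13 to 15 were measured: 1 higher and 2 lower at oxazolone day 10, 8 and 1 at day 16, and 5 and 1 after MC903. Over all genes measured, 10.5, 8.61 and 9.35% were higher and 5.79, 11.4 and 9.87% lower. The day 10 count of higher genes was thus near the share of all genes. The list's median log2 ratios were 0.18, 1.335 and 0.84, against 0.04, -0.15 and 0.04 over all genes. Il6 stood at 26.7 CPM in untreated fibroblast-like cells, 37.15 at day 10, 227 at day 16 and 25.3 after MC903. Il1r1, the signalling receptor for interleukin-1, stood at 237, 520.3, 737 and 423 CPM. The interleukin-6 receptor chain Il6ra stood at 118 CPM in untreated and MC903 cells, and at 29.4 and 23.1 CPM at day 10 and day 16. Il1b (40.5 against 2.70 CPM) and Osm (5.93 against 0.413 CPM) were higher at day 16, when the neutrophil markers of the same cells stood at 464 against 1.46 CPM. Neutrophil RNA, at the percentage used for Lcn2, would give 28.1 CPM of Il1b and 2.68 CPM of Osm there, and its part in these levels was not tested. Of the 15 signalling and transcription factors measured of 16, 1 was higher and 1 lower at day 10 (Cebpa, 1.21, and Irf1, -1.53), 1 higher at day 16 (Nfkb1, 1.02) and 0 after MC903, where Stat3 stood at 474 against 287 CPM. Medians were -0.40, 0.21 and 0.12. The counts of higher factors lay under the shares of all genes given above.

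The gate with the highest level differed between the members. In each treated library 5 of the 9 genes had their highest level in fibroblast-like cells, among the gates with 50 or more cells. The share of all genes highest in that gate was not computed, so nothing is read from this count. Some smaller gates stood higher: after MC903, 15 adipocyte-like cells held 13350 CPM of Hp, 613 of Saa1 and 514 of Saa2. Among the gates with 50 or more cells, Saa3, Saa1, Saa2 and Ptx3 were highest in fibroblast-like cells in all 3 treated libraries. Lcn2, Hp and Cebpb were highest in neutrophil-like cells there, with Cebpb at 2388, 2507 and 2810 CPM. Cebpd was highest in the fibroblast-and-chondrocyte-like cells at day 10 (373.5 CPM) and in fibroblast-like cells at day 16 and after MC903. Sod2 was highest in fibroblast-like cells at day 10 and in neutrophil-like cells at day 16 (392 CPM) and after MC903 (372 CPM). In untreated skin, where the 13 neutrophil-like cells were too few to use, Lcn2 was highest in keratinocyte-like cells (9.76 CPM) and Saa3 in macrophage or monocyte-like cells (14.6 CPM, of which 1 cell held 15 of 16 UMIs).

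**Figure D3:**
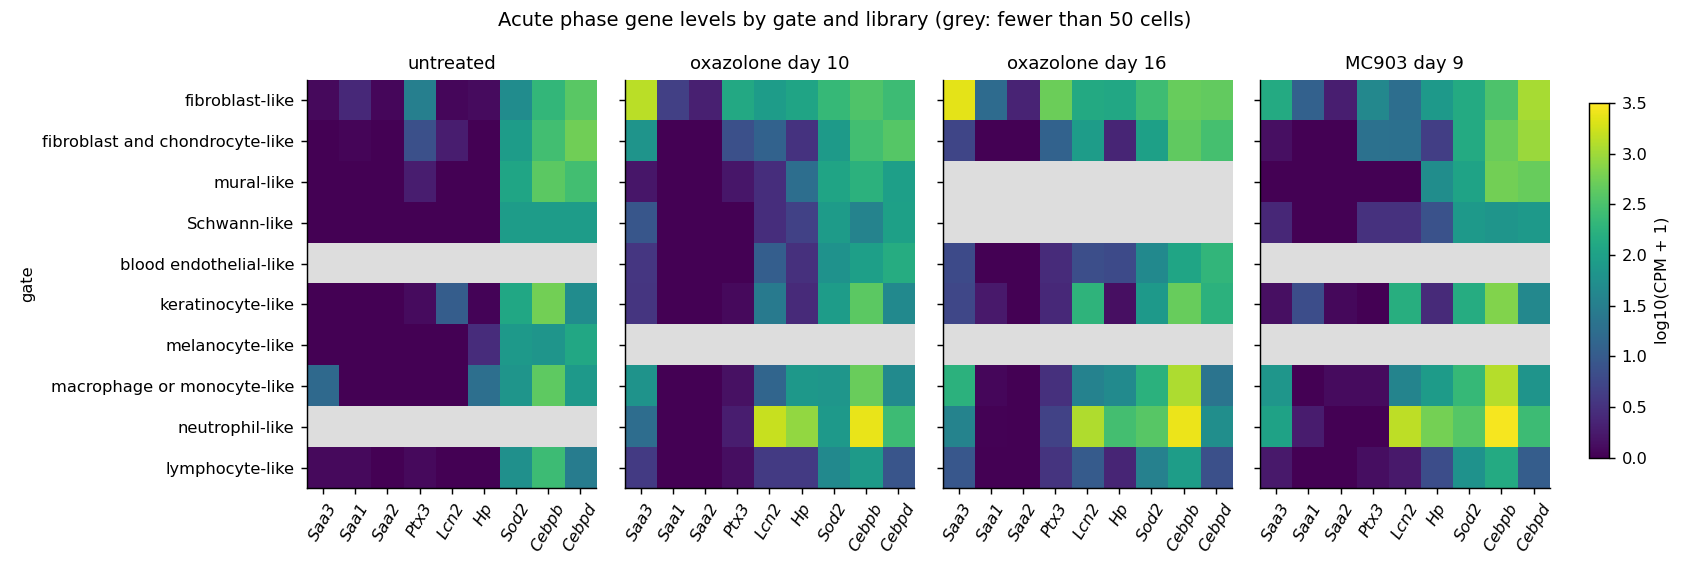
Levels of the 9 genes, as log10(CPM + 1), in 10 gates of the 4 libraries; grey rows had fewer than 50 cells. Saa3 and Ptx3 are bright in the fibroblast-like row after oxazolone, Lcn2, Hp and Cebpb in the neutrophil-like row, and Sod2, Cebpb and Cebpd show some level in every row.

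Macrophage or monocyte-like cells carried Hp already in untreated skin, and Saa3 in the treated libraries. Saa3 stood at 14.6, 61.8, 174.5 and 68.2 CPM and Hp at 18.2, 72.5, 46.6 and 82.6 CPM in untreated, day 10, day 16 and MC903 cells. The untreated Saa3 level was 0.929 CPM without its highest cell. Cebpb stood at 426, 498, 1165 and 1289 CPM. At least 2-fold higher were 3 of 6 measured members at day 10 (7.31% of all genes), 5 of 7 at day 16 (8.43%) and 5 of 6 after MC903 (8.72%). Lcn2, counted each time, stood at 12.8, 34.96 and 37.5 CPM. Neutrophil RNA at the percentages of these cells would give 4.50, 13.9 and 10.0 CPM of it, and its part was not tested. Cebpd was at least 2-fold lower at day 16 (21.3 against 77.4 CPM, the latter from 85 UMIs), as were 22.1% of all genes. For comparison with cells that carry little Saa3, mural-like, Schwann-like and blood endothelial-like cells stood at 0 to 7.52 CPM in the treated libraries. Neutrophil-like cells stood at 16.95, 35.5 and 103 CPM of Saa3.

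Lcn2 was the member that stood out in keratinocyte-like cells, an epithelium known to release it. It stood at 9.76 CPM in untreated skin, 26.9 at oxazolone day 10, 189 at day 16 and 155.5 after MC903, where the last 2 libraries held only 83 and 113 such cells. The log2 ratios were 1.46 (interval 1.27 to 1.66), 4.28 (4.07 to 4.49) and 4.00 (3.80 to 4.195). At day 16 the median cell had 0 CPM of Lcn2, and 9 of the 83 cells held 87.65% of its UMIs. After MC903 the median was 58.96 CPM, and 1 cell held 21.7% of the UMIs (125.9 CPM without it). Neutrophil RNA at the percentages of these cells would give 2.77, 4.89 and 0.736 CPM. Single neutrophil genes stood at up to 0.432% (Camp), 2.22% (Il1r2) and 12.7% (Camp) of their neutrophil level. The part of neutrophil RNA in these Lcn2 levels was not tested further. Hp, counted among the higher members at day 10, stood at 1.61 CPM in these cells, where neutrophil RNA would give 1.44 CPM. In all, 3 of 6 measured members were at least 2-fold higher at day 10 (14% of all genes), 2 of 4 at day 16 (10%) and 1 of 4 after MC903 (5.04%). With 5% of the UMIs taken off in proportion to the whole library, the day 10 count was 0. Cebpd was the other member higher at day 16, at 176 against 50.1 CPM.

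Cells passing both the fibroblast and the chondrocyte gate did not share the Saa3 level of fibroblast-like cells. In fibroblast-and-chondrocyte-like cells Saa3 gave 0 UMIs in untreated skin and stood at 64.4 CPM at oxazolone day 10 (446 of 459 UMIs in 1 cell, and 1.84 CPM without it), 4.37 at day 16 (10 UMIs) and 0.378 after MC903 (1 UMI). Lcn2 stood there at 0.925, 11.6, 85.2 and 18.5 CPM, beside 0.150, 86.2, 131 and 17.6 CPM in fibroblast-like cells. At least 2-fold higher were 2 of 6 measured members at day 10 (3.01% of all genes), 1 of 5 at day 16 (2.42%) and 2 of 5 after MC903 (5.84%). Lcn2 was higher each time, with Saa3 at day 10 and Ptx3 after MC903 (19.3 against 6.21 CPM). Both of the latter calls rested on 1 cell: in the Ptx3 case it held 45.1% of the UMIs, and the level without it was 10.8 CPM.

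Within the fibroblast-like gate, subsets were set by 2 or more of 6 markers each. Saa3 was present in all of them after oxazolone, but it was low in those with perichondrium markers such as Angptl7 and Chad. At day 16 it stood at 3064 CPM in cells with adventitial markers such as Pi16 and Dpp4, 2045 in cells with Cxcl13 and Inmt type markers, 1939 in cells with Postn and Cilp type markers and 1859 in cells with papillary markers such as Coch and Crabp1. In perichondrium-marked cells it stood at 5.87 CPM (5 UMIs in 37 cells), and at 3.28 and 1.32 CPM at day 10 and after MC903. Ptx3 had another distribution. In untreated skin it stood highest in cells with adventitial markers, as given above. At day 16 Ptx3 stood at 648 CPM in adventitial-marked, 709 in Cxcl13 and Inmt type and 587 in Postn and Cilp type cells, but at 50.5 in papillary-marked cells, where Saa3 was 1859. Hp had no fixed order of subsets. Cells with Cxcl13 and Inmt type markers held 108 CPM of it at day 10, 5.32 at day 16 (7 UMIs in 40 cells) and 75.6 after MC903, and adventitial-marked cells 33.1, 102 and 78.7 CPM.

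**Figure D4:**
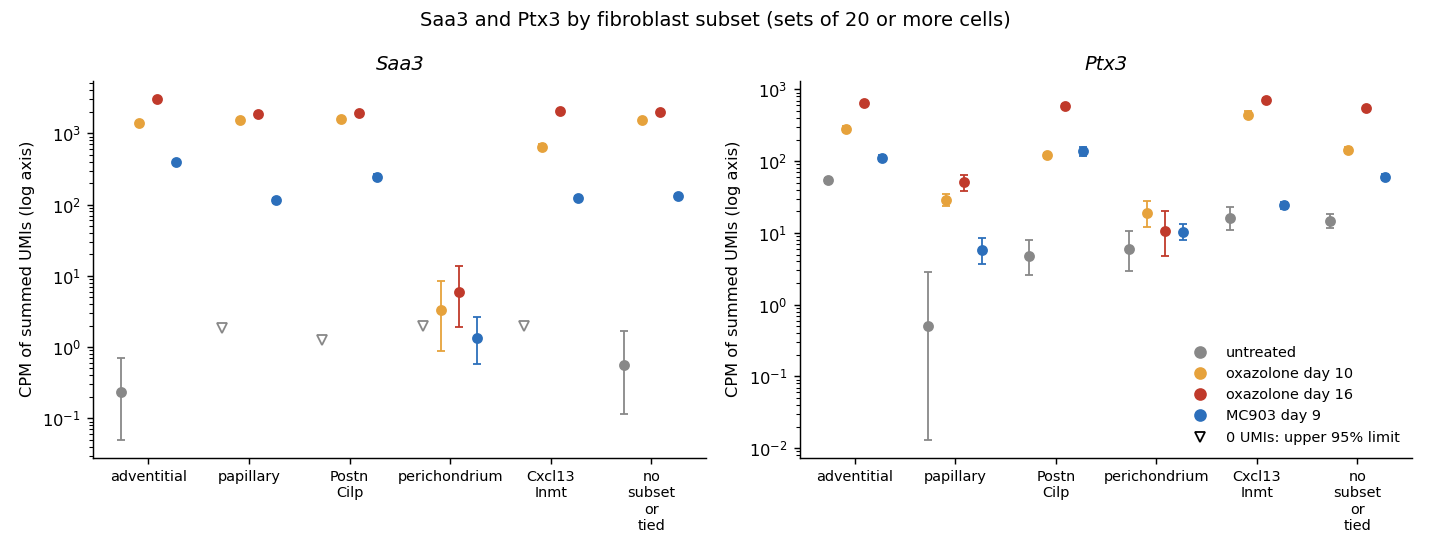
Saa3 and Ptx3 levels in fibroblast-like cells by subset markers, in CPM on a log axis with 95% Poisson intervals, for sets of 20 or more cells; open triangles are upper limits where no UMI was found. Perichondrium-marked cells lie near 1.32 to 5.87 CPM of Saa3 in the treated libraries, and papillary-marked cells lie low for Ptx3 but not for Saa3.

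Few cells carried most of the secreted acute phase RNA. With every cell thinned to 1000 UMIs, so that depth was equal, 0 of 2068 untreated fibroblast-like cells had a Saa3 UMI, which allows a share of up to 0.145% at this depth, counting 3 cells as the limit of a 0. At oxazolone day 10 the share was 10.15% of 749 cells, with an exact binomial interval of 8.08 to 12.5%. It was 23.7% of 414 cells (19.7 to 28.1%) for day 16 and 2.55% of 1412 cells (1.79 to 3.51%) for MC903. The thinning left out 21, 6, 14 and 20 shallower cells. Without thinning the shares were 0.239, 20.9, 40.9 and 5.94%. Melanocyte-like cells, which should lack the gene, could be set beside them only in untreated skin, where 0 of 126 thinned cells had a UMI (up to 2.38%), at a median depth of 3823 UMIs. The tenth of cells with most UMIs of the gene held 98.7, 86.8 and 100% of Saa3 and 98.0, 84.7 and 94.0% of Lcn2 in the 3 treated libraries. With a Saa3 UMI in only 5.94% of MC903 cells, the 100% there was fixed in advance. Untreated cells gave 100% for both genes too, from 6 UMIs of Saa3 and 4 of Lcn2. For Cebpb, which had a UMI in most cells, the tenth held 36.1 to 40.5%. This measure follows the number of cells with a UMI and their depth, so the genes cannot be ranked by it. The highest single cell at day 10 held 2730 Saa3 UMIs, 109000 CPM of that cell.

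The cells with most Saa3 also held much of the other members' RNA. Ranked by Saa3, the top 76 of 755 cells at oxazolone day 10 held 16.3% of all fibroblast UMIs but 82.2% of the Lcn2 UMIs (interval 80.2 to 84.2%), 64.5% of Ptx3, 61.0% of Hp and 40.6% of Sod2. At day 16 the top 43 of 428 held 13.04% of all UMIs, 57.1% of Lcn2, 44.9% of Ptx3, 44.3% of Hp and 31.9% of Sod2. With MC903 the top 144 of 1432, of which 85 had a Saa3 UMI, held 14.0% of all UMIs, 59.0% of Ptx3, 31.7% of Hp and 25.1% of Lcn2. The shares of Cebpd were smaller, at 17.2, 17.1 (interval 16.1 to 18.1) and 10.7%, which is above the share of all UMIs at day 16 and below it after MC903. For Cebpb they were 20.8, 21.6 and 16.4%. Without the top 76 cells the day 10 log2 ratio of Ptx3 over untreated skin was 0.80, under the 2-fold call, and that of Saa1 was 0.50.

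**Figure D5:**
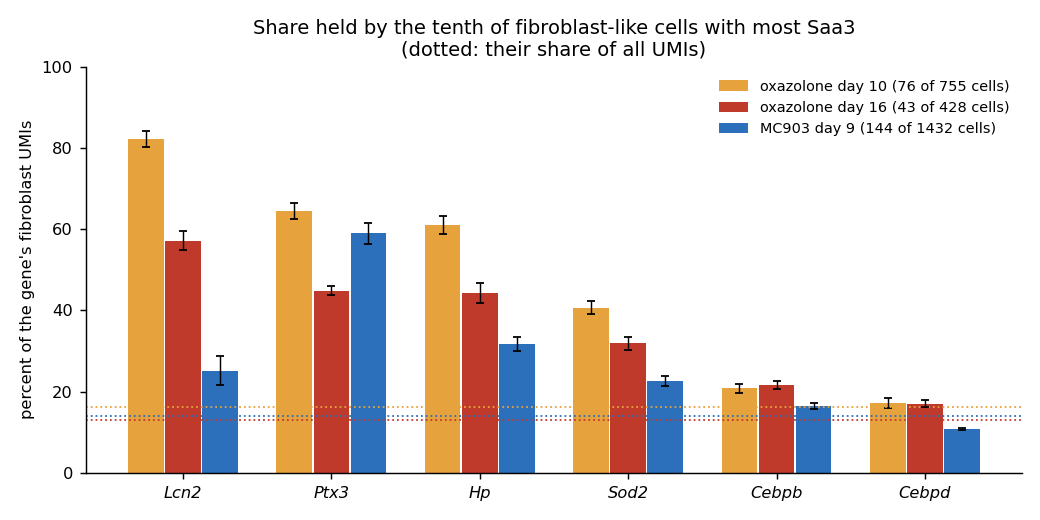
Percent of each gene's fibroblast UMIs held by the tenth of fibroblast-like cells with the highest Saa3, in the 3 treated libraries; bars show exact binomial intervals and dotted lines the share of all UMIs in those cells. Lcn2, Ptx3 and Hp lie above the dotted lines in every library, and Cebpd lies below the line after MC903.

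The neutrophil chemokine Cxcl5 marked many of the same cells. Fibroblast-like cells with a Cxcl5 UMI were 28.2% of the gate at oxazolone day 10, 36.9% at day 16 and 3.35% after MC903, and held 89.85, 79.5 and 51.8% of its Saa3 UMIs. Those cells were also deeper, at a median of 35680, 44830 and 41860 UMIs against 15490, 22220 and 21410 in the rest, and the part of depth in this was not tested. Across 35 points, each 1 gate in 1 library with 50 or more cells, Cxcl5 was also the gene with the pattern most like Saa3 (Pearson r of log2 CPM 0.84, among 8363 genes), followed by Mmp19 (0.73), Man2a1 (0.73), Ifi204 (0.73) and Hp (0.72). For Ptx3 these were Ccl19 (0.92), Lrrc15 (0.91), Mmp3 (0.91), Osr1 (0.91) and Fgf14 (0.90). For Lcn2 they were Slpi (0.87), S100a9 (0.84), Cstdc4 (0.80), S100a8 (0.80) and Stfa1 (0.80), and for Hp Prdx5 (0.83), F5 (0.81), Csta2 (0.80), Chmp4b (0.79) and Mmp8 (0.79). Points of 1 library share its depth and preparation, so these are descriptions.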

How the data were processed

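Whole-number UMI counts per gene and cell barcode were deposited as filtered matrices, made with Cell Ranger on mm10 per the submitters' processing notes. The notes name version 8.0, while the file headers give 7.2.0 (untreated skin, oxazolone day 10) or 8.0.0 (oxazolone day 16, MC903), so for the later pair version and condition cannot be told apart. The libraries were made with a 10x 3′ kit after collagenase digestion and dead cell removal, per the labels' protocols. Barcodes numbered 4185 to 8708 and UMIs 73054242 to 119717836 per library. A cell was kept if it had 300 or more genes and its mitochondrial share did not pass 15%, which left 27755 cells.

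A gate needed 3 markers at 2 or more UMIs each. This scoring rule was chosen after seeing the data. Cells in 2 or more gates (308 to 1044 per library) were left out, except fibroblast-and-chondrocyte cells, and no doublet caller was run. Values need 50 cells. UMIs were summed per gate and library and scaled to CPM. Intervals are exact: Poisson for a level, Clopper-Pearson for a share, and conditional binomial for a ratio, all at 95%. Where a library had 0 UMIs the ratio is a lower bound at 3 UMIs. Thinned shares use 1000 UMIs a cell. With 1 library per condition no test between conditions was made.

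The members and gene lists were chosen with earlier results of these data known. All 9 members are named, with at most the 4 largest ratios from each of 4 lists per comparison and, for Saa3, Lcn2, Ptx3 and Hp, the 5 genes of most similar log2(CPM + 1) pattern among those reaching 50 CPM in a gate. Promoter motifs were searched on both strands. The ratio code was tested on simulated counts. Alternatives changed the gate rule, cell filters, count minimum, fold, scaling, free RNA and thinning. Python 3.11.15, NumPy 2.4.6, SciPy 1.17.1, pandas 2.3.3, Matplotlib 3.10.9 and Biopython 1.88 were used.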

Additional observations from a re-analysis of the deposited data

Results flagged for a closer look

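The regulators Cebpb and Cebpd lay on opposite sides of untreated skin in different cell types of the same library. In each case the difference between the cell types was not tested. At oxazolone day 16 the log2 ratio of Cebpb over untreated skin was 1.45 in macrophage or monocyte-like cells and -1.49 in lymphocyte-like cells. Cebpd with MC903 stood at a log2 ratio of 1.47 in fibroblast-like cells and -1.53 in lymphocyte-like cells. At oxazolone day 16 Cebpd stood at 1.82 in keratinocyte-like cells, from 83 cells, and at -2.20 in lymphocyte-like cells. Lymphocyte-like cells held 28.1 CPM of Cebpd in untreated skin and 6.12 to 9.73 CPM in the treated libraries. Of all genes measured in these cells, 27.1% were at least 2-fold lower at day 16 and 15.9% after MC903. Such lower levels were thus not particular to Cebpb and Cebpd there. At least 2-fold higher at day 16 were 8.43% of genes in macrophage or monocyte-like cells and 10% in keratinocyte-like cells. After MC903 it was 9.35% in fibroblast-like cells.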

How the results depend on the processing

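The number of members at least 2-fold higher in fibroblast-like cells stayed within 1.5 times its value in all 47 alternative settings, and the number highest in fibroblast-like cells in all 16. In keratinocyte-like cells it did so in 33 of 38 and in macrophage or monocyte-like cells in 38 of 39. The keratinocyte count at oxazolone day 10 was 0 in place of 3 with 5% of UMIs taken off. At day 16 it was 4 in place of 2 with a minimum of 10 UMIs and 4 with no minimum, and with MC903 it was 3 and 4 in place of 1. The macrophage count at day 16 was 2 in place of 5 at a 3-fold threshold. The share of fibroblast-like cells with a Saa3 UMI without thinning was 0.239% (untreated), 20.9% (day 10), 40.9% (day 16) and 5.94% (MC903), and it was 12.7% at day 10 when thinned to 2000 UMIs. Of 338 recomputed log2 ratios of single members, 276 stayed within their counting interval. The sign changed in 0 of 269 for ratios past 2-fold and in 4 of 69 for ratios under it (Cebpd at day 16, at -0.05 with cells weighed equally, and MC903 Ptx3 in 3 settings). The next 2 settings were chosen after seeing the data. Without the tenth of cells highest in Saa3, the day 10 ratios were 0.80 for Ptx3, 0.50 for Saa1 and 6.995 for Saa3, and MC903 Ptx3 stood at -0.63. Without cells holding a neutrophil marker UMI, MC903 Ptx3 stood at -0.82 and 6 members were higher. With 1 marker fewer to enter a gate, the day 16 ratios were 0.64 for Saa1, 10.54 for Saa3 and 2.69 for Ptx3, and MC903 Ptx3 stood at -0.18. For changes of minimum, fold, depth and cells the cause is the setting itself, and otherwise the cause was not tested. No paired analysis was possible because each condition had 1 library, and no library could be left out. Depth limits Saa2, with 4 to 35 UMIs, and the 6, 4 and 7 untreated UMIs of Saa3, Lcn2 and Hp set the width of their ratio intervals.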

Other observations

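Some gates too small for the comparisons held much RNA of the acute phase genes. With MC903, 15 adipocyte-like cells (Adipoq 665 CPM, Cidec 1569 CPM and Retn 1356 CPM, Lep at 0) held 8210 Hp UMIs, 13350 CPM, which is 55.8% of the Hp of that library. All 15 had Hp, from 8 to 2239 UMIs with a median of 392. The same cells held 316 Saa2 UMIs, 82.9% of the library's, but 81.3% of these were in 1 cell, and 377 Saa1 UMIs, 43.2% of them in 1 cell. Saa3 gave 4 UMIs there.

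In untreated and MC903 skin, lymphatic endothelial-like cells held Lcn2, and no Saa3 or Hp UMI was found in them. In untreated skin 21 cells gave 34 Lcn2 UMIs, 307 CPM, with 11 of the cells positive. With MC903, 14 cells gave 233 UMIs, 1259 CPM, with 13 positive. Saa3 and Hp gave 0 UMIs in both, from only 110840 and 185076 UMIs of all genes, so low levels cannot be seen. The oxazolone libraries held 4 and 10 such cells, which are not described here. These gates were singled out after their values were seen.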
